A study of Arabidopsis thaliana with 6 samples.

Results

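The microRNAs (miRNAs) miR164 and miR394 were followed in Arabidopsis thaliana seedlings given a brassinosteroid, one of the steroid hormones of plants, which drive cells to elongate. They were taken as every sequence listed under a miR164 or miR394 locus, on either arm of the precursor hairpin, which gave 5 of the 294 mature sequences listed. These 5 come from 5 precursor loci: MIR164a, MIR164b and MIR164c account for 4 sequences, and MIR394a and MIR394b share 1. All plants carried BRI1-Flag, a tagged wild-type copy of the brassinosteroid receptor, driven by the native BRI1 promoter in the bri1-5 receptor mutant, so receptor function in both groups comes from the transgene and what the mutant allele retains. Whole seedlings from shaking liquid culture were harvested 90 min after receiving 1 µM epibrassinolide (epiBL, an active brassinosteroid) or the solvent alone (control), with 3 biological replicates each and 6 small RNA libraries in all. Age was not given in the sources used here. Reads identical to a listed mature sequence summed to between 2050074 counts in epiBL replicate 3, the shallowest library, and 4482479 in control replicate 1.

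miR164 guides cleavage of mRNAs of NAC transcription factors. Among these, CUC1 and CUC2 set the boundaries between organs and the shoot meristem, NAC1 acts in lateral root formation and ORE1 promotes leaf senescence. miR394 acts on LCR, an F-box protein, and is known from the shoot apex, where it is made in the surface layer and keeps the cells beneath able to act as stem cells. In both families the 5p arm is the guide strand that acts on the targets, and the 3p arm is the strand opposite it in the precursor. Brassinosteroid signalling is known to act on CUC genes at organ boundaries. In whole seedlings, fewer cells that make a miRNA and less of it per cell cannot be told apart.

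The mature sequences are shown 5′ to 3′ in DNA letters, as deposited, with the seed (bases 2 to 8) in capitals, because the 2 guide sequences of miR164 share their seed and are told apart by 1 base at the other end.
miR164a/b-5p: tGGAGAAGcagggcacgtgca
miR164c-5p: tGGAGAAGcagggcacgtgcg
miR164b-3p: cATGTGCCcatcttcaccatc
miR164c-3p: cACGTGTTctactactccaac
miR394a/b-5p: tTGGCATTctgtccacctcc

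The 5p sequence of MIR164a and MIR164b is identical, so its counts cannot be divided between these loci. The 5p sequence of MIR164c differs from it by A21G (positions run from 1 at the 5′ end, and the base of miR164a/b-5p comes first), and no other listed sequence of the same length lay within 2 substitutions of a member. Exact matching therefore separates miR164c-5p from miR164a/b-5p by the last base alone. A read error or plant variant at that base can move a read between them. miR394a/b-5p is 20 nt long and the 4 miR164 sequences are 21 nt, and their GC content ran from 47.6% in miR164c-3p to 66.7% in miR164c-5p.

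On the TAIR10.1 assembly, exact matches to the 5 sequences fell inside the annotated precursors alone, all on the plus strand and none within a protein-coding gene. miR164a/b-5p lies at chr2:19520770-19520790 in MIR164a and at chr5:287586-287606 in MIR164b, and miR164b-3p at chr5:287716-287736. The MIR164c arms lie at chr5:9852684-9852704 (5p) and chr5:9852747-9852767 (3p). miR394a/b-5p lies at chr1:7058207-7058226 in MIR394a and chr1:28568821-28568840 in MIR394b. The nearest protein-coding gene was between 910 bp (PHR2, beside MIR164a) and 3132 bp (AT1G20380, beside MIR394a) away. MIR164b and MIR164c, whose arms are compared below, are given as RefSeq's TAIR10.1 precursors with the sequences counted in capitals.
MIR164b: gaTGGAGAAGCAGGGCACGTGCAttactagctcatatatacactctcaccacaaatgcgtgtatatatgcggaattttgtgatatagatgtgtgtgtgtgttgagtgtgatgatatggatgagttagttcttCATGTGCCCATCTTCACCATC
MIR164c: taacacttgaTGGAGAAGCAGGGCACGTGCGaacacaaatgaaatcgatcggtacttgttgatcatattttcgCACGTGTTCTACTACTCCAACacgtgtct

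The windows of known target transcripts that pair best with the guide strands are shown 5′ to 3′, with the bases that do not form a Watson-Crick pair with miR164a/b-5p or miR394a/b-5p in capitals. They show which targets the terminal base of the MIR164c product bears on. A window is a match of letters and not a measured cleavage site, and target mRNAs were not measured here.
CUC1: AgcacgtgTcctgTttctcca
CUC2: AgcacgtgTcctgTttctcca
NAC1: AgcacgtAccctgcttctcca
NAC080: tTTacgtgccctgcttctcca
NAC100: tCTacgtgccctgcttctcca
ORE1: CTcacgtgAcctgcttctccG
LCR: ggaggtTgacagaatgccaa

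All 7 windows lie in coding sequence, those of CUC1 at chr3:5111137-5111157 (plus strand), of CUC2 at chr5:21902301-21902321 (minus strand) and of LCR at chr1:9497605-9497624 (plus strand). CUC1 and CUC2 hold the same window, with 1 mismatch, opposite miRNA base 21, and 2 G:U pairs. LCR has 1 mismatch to miR394a/b-5p, opposite base 14. For CUC1, CUC2 and NAC1, base 21 of the miRNA is unpaired with either miR164 guide. At NAC080 and NAC100, which encode NAC factors too, the miR164c-5p guide adds a G:U pair at base 21, while at ORE1 it pairs there and leaves 2 mismatches in place of 3.

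Levels are given as normalised CPM (counts scaled to a fixed library total, corrected by TMM, a factor that aligns the bulk of miRNAs between libraries). miR394a/b-5p was the most abundant of the 5, with a mean of 208 CPM over the 6 libraries and rank 47 of 148 tested sequences. miR164b-3p and miR164a/b-5p followed at 39.1 and 38.7 CPM, ranks 82 and 83, and were not separated by their spread over libraries. The MIR164c arms were rare, at 1.88 CPM (3p) and 1.26 CPM (5p), and these did not separate from each other either. Mean CPM of miR394a/b-5p was thus 5.38 times that of miR164a/b-5p, and that of miR164a/b-5p was 30.7 times that of miR164c-5p. These are ratios of reads between different sequences, and whether they equal ratios of molecules was not tested.

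**Figure D1:**
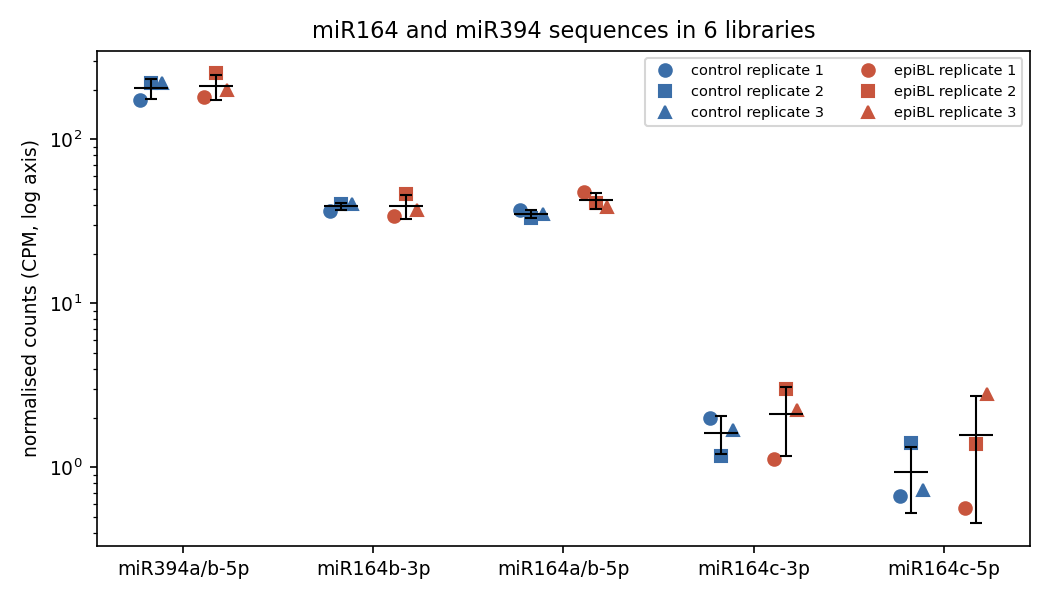
Normalised counts (CPM, log axis) of the 5 miR164 and miR394 sequences in each library, with control in blue and epiBL in red, marker shape giving the replicate number, and black lines giving mean ± SD (n = 3). miR164a/b-5p is the one sequence whose 3 epiBL libraries, from 38.6 to 47.6 CPM, all lie above its control libraries, from 33.0 to 36.9 CPM. Groups did not overlap in 27.7% of the 148 tested sequences, and in 10.1% with epiBL higher. The edgeR adjusted p of miR164a/b-5p was 0.226.

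miR164a/b-5p, the main miR164 guide, stood at 36.9, 33.0 and 35.2 CPM in control replicates 1, 2 and 3 and at 47.6, 41.1 and 38.6 CPM in epiBL replicates 1, 2 and 3. All 3 epiBL libraries were above all 3 controls. Such a separation, in either direction, was seen in 27.7% of the tested sequences, and with epiBL higher in 10.1%. Group means were 35.0 ± 1.96 and 42.4 ± 4.63 CPM (SD, n = 3 each), a 1.22-fold difference, with a log2 fold change of 0.29 (SE 0.15) and a 95% interval of 0.98-fold to 1.52-fold. It did not pass the edgeR quasi-likelihood test, whose p of 0.0715 became 0.226 after Benjamini-Hochberg adjustment over the 148 sequences, and total-count scaling lowered the log2 fold change to 0.16. The raw counts behind these values ran from 69 to 177, and counting error alone is 7.52% to 12.0% of such counts.

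miR164b-3p, the strand opposite the guide at MIR164b, stood at 36.6, 40.2 and 40.2 CPM in control replicates 1, 2 and 3 and at 34.0, 46.4 and 36.9 CPM in epiBL replicates 1, 2 and 3. The epiBL libraries held both the highest and the lowest of the 6 values. The log2 fold change was 0.02 (SE 0.16, edgeR adjusted p = 0.959), with a 95% interval of 0.802-fold to 1.28-fold, and its sign turned under total-count scaling.

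miR394a/b-5p, which acts on LCR, stood at 173, 221 and 221 CPM in control replicates 1, 2 and 3 and at 182, 253 and 199 CPM in epiBL replicates 1, 2 and 3. The groups overlapped, and replicate 1 was the lowest library in each. Its log2 fold change was 0.05 (SE 0.14, edgeR adjusted p = 0.878), with a 95% interval of 0.847-fold to 1.27-fold, and total-count scaling turned its sign too. Counting error was 3.03% to 5.30%, less than the spread between replicates, whose coefficient of variation was 13.5% in controls and 17.5% with epiBL.

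The MIR164c arms were below the filter on low counts, so 3 of the 5 sequences were tested. Raw counts of miR164c-5p were 3, 6 and 3 in control replicates 1, 2 and 3 and 2, 6 and 5 in epiBL replicates 1, 2 and 3. Those of miR164c-3p were 9, 5 and 7 in controls and 4, 13 and 4 with epiBL. Both pairs of groups overlapped in CPM. In a fit without the filter, log2 fold changes were 0.55 (SE 0.75) and 0.41 (SE 0.59), with edgeR adjusted p of 0.782 for both, and the intervals of -0.93 to 2.03 and -0.76 to 1.57 on the log2 scale include 0 and extend above a 2-fold rise.

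None of the 3 tested sequences was called at an adjusted p under 0.05 in edgeR, DESeq2 or limma, against 8.11% of all tested sequences in edgeR. At an unadjusted p under 0.05 the number was also 0 in the main fit of each of these tools, against 23.6% in edgeR. The unadjusted p of miR164a/b-5p was under 0.05 in 3 of 13 alternative fits. The lowest was 0.0313, in edgeR without epiBL replicate 3. In the authors' deposited table the p-values of miR164a/b-5p, miR164b-3p and miR394a/b-5p were 0.0609, 0.918 and 0.685. The authors' deposited table gives signed folds of 1.23, 1.02 and 1.05 for these, and of 1.50 for miR164c-5p and 1.33 for miR164c-3p with p of 0.415 and 0.489.

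Summed by family and arm, the miR164 guides stood at 36.1, 34.9 and 34.9 CPM in control replicates 1, 2 and 3 and at 48.7, 42.5 and 43.1 CPM in epiBL replicates 1, 2 and 3. Each epiBL library was above each control, as in 25% of the 116 sums tested. The log2 fold change of the miR164 5p sum was 0.35 (SE 0.14), with an unadjusted p of 0.0257 and an edgeR adjusted p of 0.158, so it did not pass; 0.862% of the sums did. An unadjusted p under 0.05 was reached by 21.6% of the sums. In 13 alternative fits the change of this sum stayed positive and never passed after adjustment, and its unadjusted p was under 0.05 in 5 of them. The log2 fold change was 0.17 under total counts and 0.23 without epiBL replicate 1, against 0.35 in all libraries with TMM factors. The sum is almost wholly miR164a/b-5p. The miR164 3p sum had 0.08 (SE 0.16) and the miR394 5p sum, which is 1 sequence, 0.10 (SE 0.14). Sums had TMM factors of their own, so their values are not on the scale of single sequences. The same miR394 counts gave 0.05 as a single sequence. Under total counts, miR164a/b-5p had 0.16 and the miR164 5p sum 0.17. The step from 0.29 for miR164a/b-5p to 0.35 for the sum therefore cannot be credited to miR164c-5p.

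**Figure D2:**
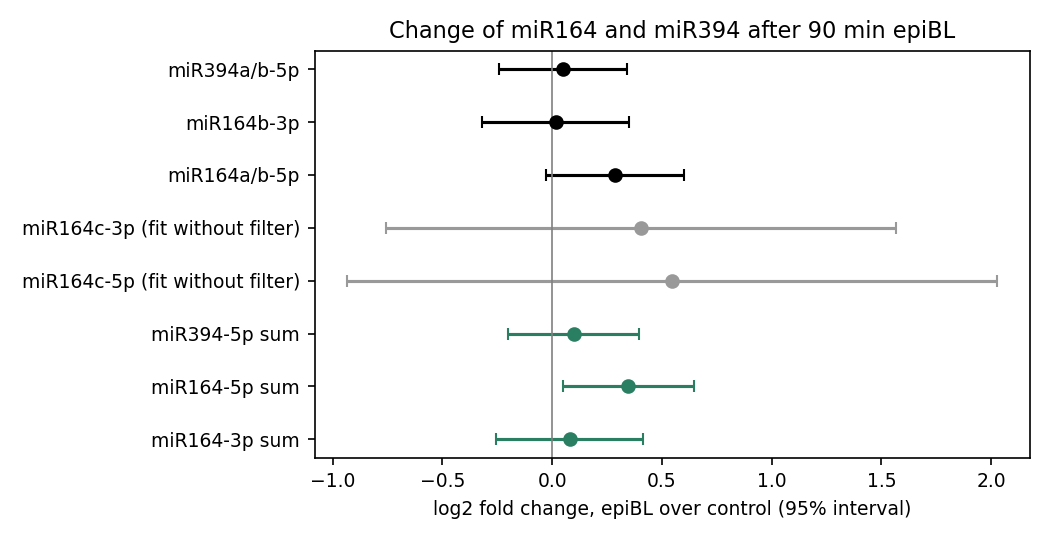
Log2 fold changes, epiBL over control, with 95% intervals, for the 3 tested sequences (black), the MIR164c arms in a fit without the filter (grey) and sums per family and arm (green). Sums had TMM factors of their own and are not on the scale of single sequences. The intervals of single sequences all include 0, and that of the miR164 5p sum, centred on 0.35, does not, although its adjusted p is 0.158 and its unadjusted p was under 0.05 in 5 of 13 alternative fits.

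The MIR164c sequence made up a small share of the counts of miR164 guides. miR164c-5p held 1.79%, 4.08% and 2.03% of miR164 5p counts in control replicates 1, 2 and 3 and 1.18%, 3.28% and 6.76% in epiBL replicates 1, 2 and 3. epiBL libraries held both the lowest and the highest share, and each share rests on 2 to 6 counts. The exact (Clopper-Pearson) 95% interval of the highest, 2.23% to 15.1%, overlaps that of the lowest, 0.143% to 4.19%, for counting error only. Means were 2.63% ± 1.26 and 3.74% ± 2.82 (SD, n = 3 each), which an exact permutation test, two-sided, gave a p of 0.7 (the smallest that 3 libraries against 3 allow is 0.1), and the difference ran from -0.40 percentage points without epiBL replicate 3 to 2.39 without epiBL replicate 1.

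miR164a/b-5p and miR164b-3p were counted almost equally. Over all libraries, miR164a/b-5p had 865 counts, which include the MIR164a product, and miR164b-3p had 888, or 50.7% of the pair. The 5p count of MIR164b alone is at most 865 and is unknown. Neither the balance of its own arms nor a change in that balance is therefore shown. Among 72 pairs of arms with at least 30 counts, the more abundant arm held a median of 94.8%, and the MIR164b pair was the most even. The MIR164c pair ranked 9, with 42 counts on the 3p arm and 25 on the 5p arm, or 62.7% on the 3p arm. Over all libraries the strand opposite the guide had at least as many exact counts as the guide in both pairs. This did not hold in each library. The guide had more counts in control replicate 1 and epiBL replicates 1 and 3 for the MIR164b pair. For the MIR164c pair it had more in control replicate 2 and epiBL replicate 3.

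**Figure D3:**
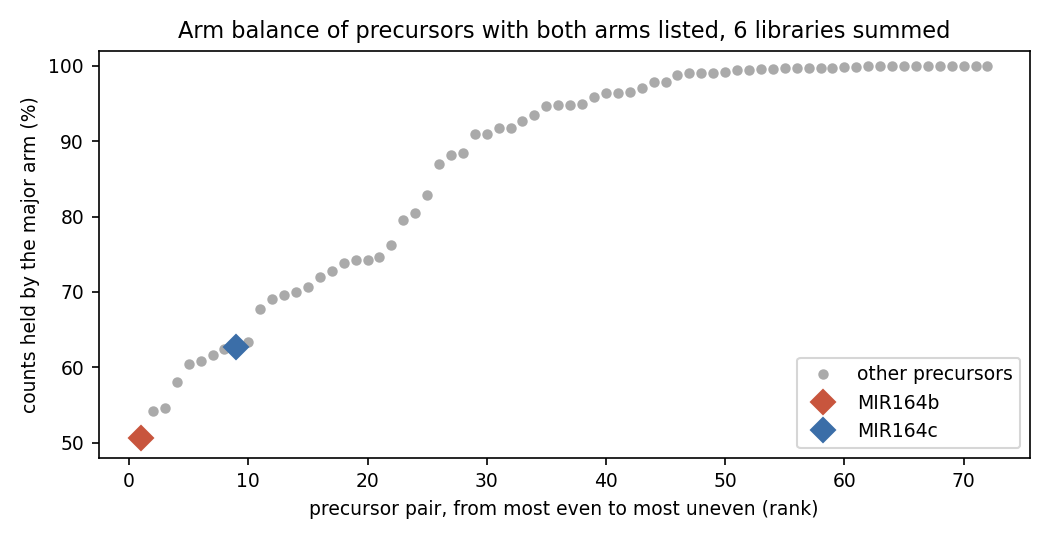
Percent of counts held by the more abundant arm, 6 libraries summed, for 72 pairs of 5p and 3p sequences in order from most even to most uneven; each point is 1 pair. MIR164b (red) lies first at 50.7% and MIR164c (blue) ninth at 62.7%, where the median pair is at 94.8%. Sequences shared by loci were counted in full in each pair, so the 5p arm of MIR164b includes the MIR164a product.

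By library, miR164a/b-5p counts were 1.01, 0.820 and 0.874 times those of miR164b-3p in control replicates 1, 2 and 3 and 1.40, 0.885 and 1.05 times in epiBL replicates 1, 2 and 3. epiBL replicate 1 had the highest ratio, and the other epiBL libraries lay within or just above the range of controls. The log2 ratio rose from -0.16 ± 0.15 to 0.12 ± 0.33 on average (SD, n = 3 each), a difference of 0.28 within the spread between replicates (exact permutation p = 0.2, two-sided, and 0.4 when adjusted over the 2 pairs of arms). That difference was 0.10 without epiBL replicate 1, 0.43 without epiBL replicate 2 and 0.14 when counts were thinned to the shallowest library. For MIR164c the log2 ratio of 5p to 3p differed by 0.23 (exact permutation p = 0.5), with a sign that changed without control replicate 1 or epiBL replicate 3.

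Whether the 2 families moved apart was asked within each library, where no scaling factor enters. miR394 counts were 4.60, 6.43 and 6.15 times those of the miR164 guides in control replicates 1, 2 and 3 and 3.79, 5.96 and 4.81 times in epiBL replicates 1, 2 and 3. The groups overlapped. The log2 ratio of miR164 to miR394 averaged -2.50 ± 0.26 over control libraries and -2.25 ± 0.33 over epiBL libraries (SD, n = 3 each), and the difference of 0.25 had an exact permutation p of 0.4. It was 0.40 and 0.16 without control replicate 1 or 2, 0.0835 and 0.41 without epiBL replicate 1 or 2, and 0.11 with both arms of miR164 summed. As shares of all counts, the 4 miR164 sequences held 0.00804% ± 0.000388 and 0.00818% ± 0.00133, and miR394 held 0.0216% ± 0.00381 and 0.0204% ± 0.00531, in control and epiBL libraries (SD, n = 3 each; exact permutation p = 0.9 and 1).

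Profiles over the 6 libraries were compared between sequences. Likeness was measured as the root mean square difference of log2 CPM, each sequence centred on its own mean, and is a description, since the sequences share libraries and scaling. miR164b-3p and miR394a/b-5p differed by 0.0781, each ranking 3 of 147 in closeness to the other. miR164a/b-5p differed by 0.251 from miR164b-3p, which is cut from 1 of its own precursors and ranked 63 of 147, and by 0.278 from miR394a/b-5p, ranked 83; both are near the median of 0.265 over sequences of other families.

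Closest to miR164a/b-5p were miR393a/b-5p (0.0413), which acts on auxin receptors, and miR170/miR171a-5p (0.105), the arm opposite the guides that act on GRAS-domain meristem regulators. The miR393a/b-5p values were 308, 272 and 291 CPM in control replicates 1, 2 and 3 and 378, 353 and 335 CPM in epiBL replicates 1, 2 and 3. Both of these sequences had every epiBL library above every control. Their choice by likeness to miR164a/b-5p over the same libraries favours this, so it is not a separate finding. The change of miR393a/b-5p on the log2 scale was 0.29 (SE 0.10, edgeR adjusted p = 0.0772), so it did not pass, although it did in DESeq2 (adjusted p = 0.0356). miR164b-3p lay closest to miR159a-3p (0.0381) and miR159b-3p (0.0745), which act on MYB transcription factors, and miR394a/b-5p to miR319a/b-3p (0.0688), which acts on TCP factors, and miR159a-3p (0.0746). These are abundant guides, at 41730 CPM for miR159a-3p, 18540 for miR159b-3p and 5106 for miR319a/b-3p, that were lowest in replicate 1 of both groups.

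**Figure D4:**
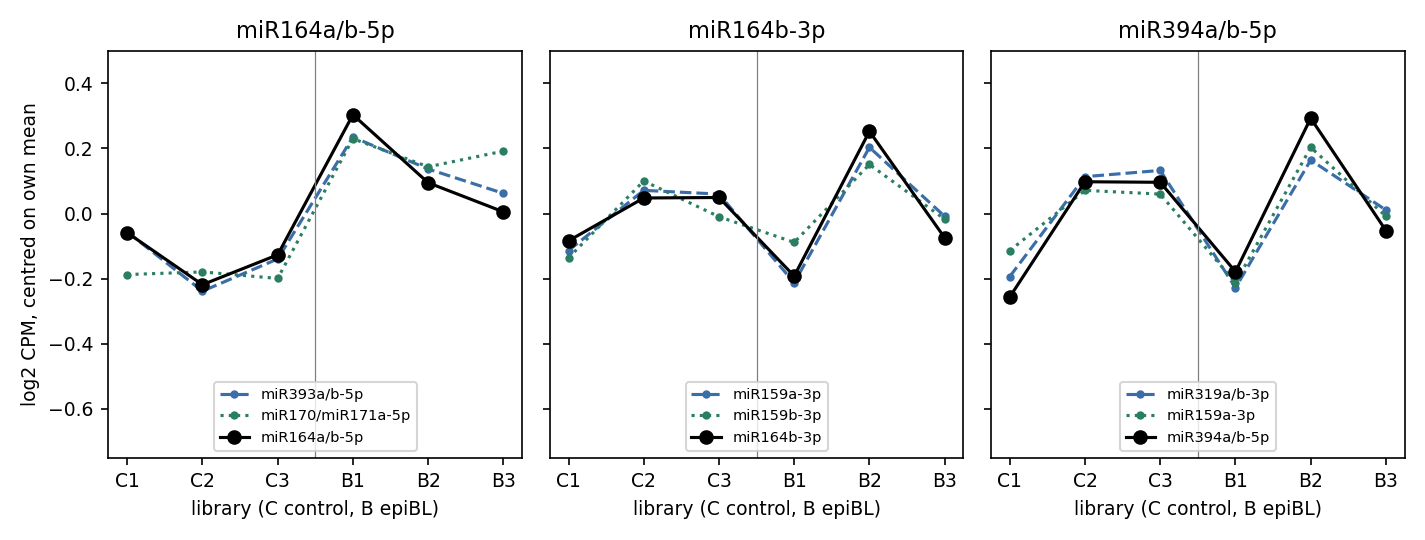
Log2 CPM centred on each sequence's own mean in control (C1 to C3) and epiBL (B1 to B3) libraries, for the 3 tested members (black) and the 2 sequences of other families with the most similar profile (blue and green). miR164a/b-5p is below its mean in every control library and above it in every epiBL library, though by 0.0054 only in epiBL replicate 3. In contrast, miR164b-3p and miR394a/b-5p peak in epiBL replicate 2 and are low in replicate 1 of both groups. Control and epiBL libraries did not overlap in 27.7% of all tested sequences.

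Among miRNA families that act in organ growth and meristems (miR159, miR160, miR164, miR165, miR166, miR170, miR171, miR319, miR390, miR394 and miR396), 28 of 32 listed sequences were tested. Of these, 1 rose, 0 fell and 27 did not pass, where 2.7% of all tested sequences rose and 5.41% fell. The one that rose was miR170/miR171a-5p, from 75.5 ± 0.528 to 98.2 ± 2.96 CPM (SD, n = 3 each; log2 fold change 0.38, SE 0.11, edgeR adjusted p = 0.0403). It did not pass under total-count scaling (adjusted p = 0.31), without the filter (0.0856), or without control replicate 1, 2 or 3 (0.14, 0.0723 and 0.128) or epiBL replicate 1 or 3 (0.0767 and 0.118). The median log2 fold change of the list was 0.17, against 0.00 for all 148 sequences, and 20 of its 28 values were positive, against 75 of 148. This list was chosen with earlier results of these data known, and no set test was run. Several of its sequences are arms of the same precursors, so its values are not independent, and they are also part of the 148. Under total-count scaling the median of all sequences moved to -0.13 and that of the list to 0.05. miR164a/b-5p stood above the list median, and miR164b-3p and miR394a/b-5p below it.

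The most abundant guide of each of the other families did not pass with all 6 libraries. Log2 fold changes were 0.25 (SE 0.12) for miR165a/b-3p and 0.23 (SE 0.13) for miR166a/b/c/d/e/f/g-3p, which act on HD-ZIP III factors that pattern the meristem and the leaf. Without epiBL replicate 2 these were 0.35 each and passed (edgeR adjusted p = 0.0406 for both). They were 0.18 (SE 0.11) for miR160a/b/c-5p, which acts on auxin response factors, 0.16 (SE 0.10) for miR171a-3p, -0.13 (SE 0.10) for miR390a/b-5p, a trigger of trans-acting siRNAs, and -0.20 (SE 0.12) for miR396b-5p, which acts on growth-regulating factors. Those of miR159a-3p and miR319a/b-3p were 0.00 (SE 0.12) and -0.03 (SE 0.12), both with a sign that depended on the setting.

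**Figure D5:**
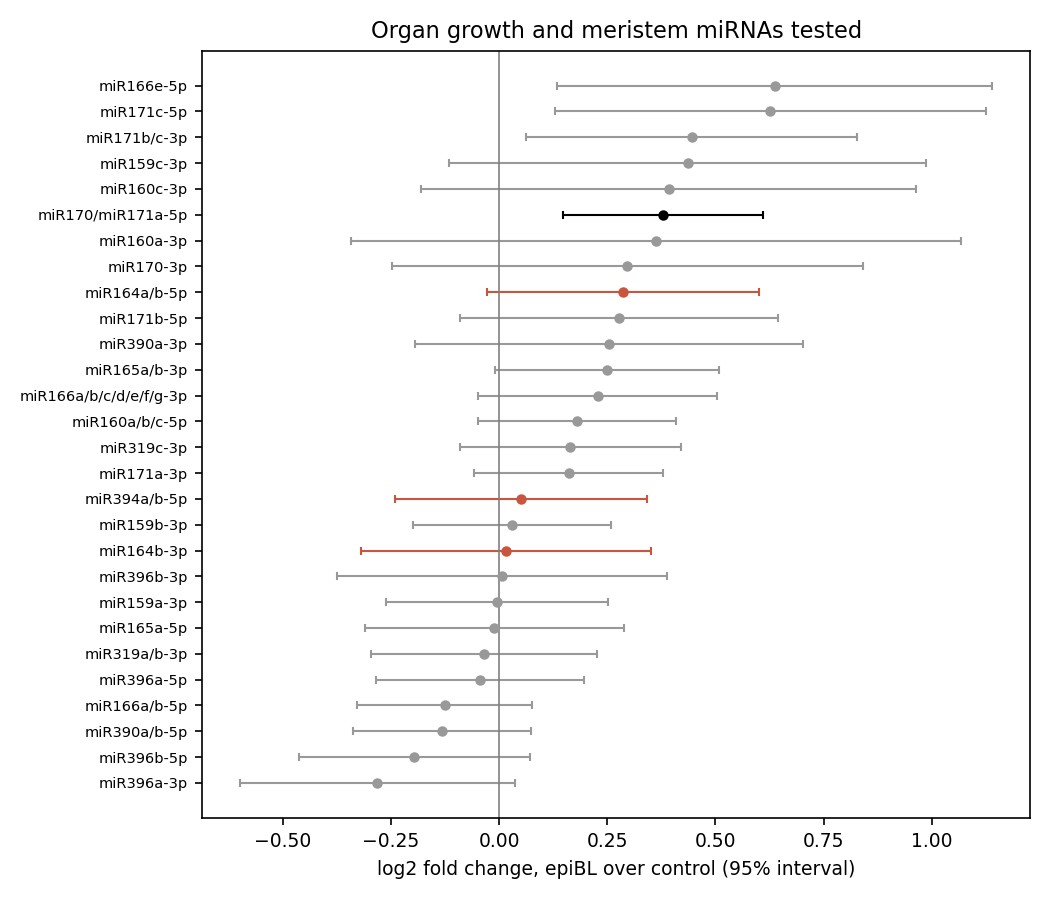
Log2 fold changes, epiBL over control, with 95% intervals, for the 28 tested miRNAs of organ growth and meristem families, ordered by size; miR164 and miR394 are in red, miR170/miR171a-5p, the one that passed, in black and the others in grey. miR164a/b-5p (0.29) lies in the upper part, and miR164b-3p (0.02) and miR394a/b-5p (0.05) near 0.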

How the data were processed

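The authors deposited 1 table of raw read counts per mature miRNA sequence in 6 libraries. Per the file headers, reads match a mature sequence exactly and are grouped by it, so trimmed or extended forms are not counted and a read error or plant variant at the last base can move a read between miR164a/b-5p and miR164c-5p. Libraries were TruSeq small RNA from mirVana-extracted total RNA, per the labels' protocols, without molecular identifiers stated, so PCR copies count as reads. TAIR10 is the build per the submitters' processing notes. No tool for trimming or alignment is named in the sources used here. The same deposited table holds the authors' p-value (an EDGE test, per the file headers), a −log10 of it, a signed fold score and its log2. Its header names 0 and 90 min, but both groups were harvested at 90 min per the labels, which were followed.

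Counts were tested over the whole table with edgeR 4.0.16 (R 4.3.3; filterByExpr with minimum count 10 and total 15, TMM, robust quasi-likelihood F test, Benjamini-Hochberg, threshold 0.05), and summed per family and arm. The standard error is the log2 fold change over the square root of F, and the biological coefficient of variation was 10.9%. Alternatives used limma 3.58.1 and DESeq2 1.42.0. Ratios within a library were log2 of counts plus 0.5 and, like shares, were compared by two-sided exact permutation (scipy 1.17.1). The procedure was also run on simulated counts, with no outcome given here. Its power to call a change as small as the 1.22-fold of miR164a/b-5p is therefore not shown. The replicates are labelled biological, with no word on separate cultures, and p-values then reflect spread among these samples that may be technical. Sequences were matched to TAIR10.1, and target windows scored without gaps, a G:U pair counting 0.5. Named were all members, the 2 most similar profiles per tested member, the called members and most abundant sequences of the organ growth list, and sequence neighbours. The members and lists were chosen with earlier results of these data known.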

Additional observations from a re-analysis of the deposited data

How the results depend on the processing

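In 13 alternative fits the log2 fold change of miR164a/b-5p stayed positive (0.16 to 0.35) and never passed (adjusted p 0.163 to 0.573). miR164b-3p and miR394a/b-5p never passed either. The values of the miR164 5p sum, the miR164 to miR394 ratio and the miR164a/b-5p to miR164b-3p ratio kept their direction under all alternatives run. Libraries of the same replicate number did not deviate together (correlations -0.094, 0.139 and -0.108, and 2 of 6 libraries were most like the one of their own number), and the replicate block gave 22 calls over all sequences in place of 12, 0 sums in place of 1 and 3 list members in place of 1. Single sequences called were 19 in DESeq2 and 5 to 25 with 1 library left out. Sums called were 3 in DESeq2, 7 under total counts, 7 without the filter, 2 with 10 counts in all libraries and 0 to 16 with 1 library left out. List members called were 0 under total counts and 0 to 5 with 1 library left out. Among other named sequences, miR393a/b-5p passed in DESeq2, and miR165a/b-3p and miR166a/b/c/d/e/f/g-3p did so when epiBL replicate 2 was left out, each with a higher value in epiBL. The cause was not tested.

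Values that changed sign, none of them past the threshold, were these. Under total counts, miR164b-3p was -0.10, miR394a/b-5p -0.0769, miR159b-3p -0.10, the miR164 3p sum -0.0881 and the miR394 5p sum -0.0768. miR164b-3p was -0.0090 in limma-trend. For miR159a-3p DESeq2 gave 0.0040, RLE factors 0.0228 and the filter of 10 counts in all libraries 0.0184. With 1 library left out, ranges were -0.14 to 0.14 for miR164b-3p, -0.0948 to 0.17 for miR394a/b-5p, -0.10 to 0.12 for miR159a-3p, -0.0283 to 0.10 for miR159b-3p, -0.12 to 0.087 for miR319a/b-3p, -0.16 to 0.16 for the miR164 3p sum, -0.13 to 0.16 for the miR394 5p sum, -0.40 to 2.39 percentage points for the miR164c-5p share, -0.18 to 0.73 for the MIR164c arm ratio, and -0.000591 to 0.000712 and -0.00428 to 0.000351 percentage points for the miR164 and miR394 shares of all counts. Other values kept their direction, and 188 of those for single sequences and sums also kept their side of the threshold. Depth limits the MIR164c arms, since 3 counts are 1.46 CPM in epiBL replicate 3.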
